A study of Saccharomyces cerevisiae with 21 samples.

Results

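Transcripts of 31 genes of ergosterol synthesis, esterification and uptake were followed in Saccharomyces cerevisiae grown in chemostats, out of 5656 genes measured through a probe set of their own. The genes were chosen by symbol from knowledge of the pathway, with earlier results of these data known. A gene with several probe sets was read from the brightest. All 31 passed the filter on low values, as did 5461 genes in all. They comprise 9 early enzymes from acetyl-CoA to farnesyl diphosphate, 14 late enzymes from farnesyl diphosphate to ergosterol, of which 5 use molecular oxygen, 2 electron donors of those steps, 2 sterol-responsive transcription factors, 2 sterol acyltransferases and 2 sterol importers.

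Ergosterol is the main sterol of the yeast plasma membrane. Its synthesis begins with the mevalonate pathway, which also feeds dolichols, ubiquinone and prenylated proteins, and its later steps need molecular oxygen and haem. Yeast growing without oxygen therefore cannot make ergosterol and takes sterols from the medium through ABC transporters, which is why ergosterol and an unsaturated fatty acid source (Tween 80) are supplied to anaerobic cultures. Under sterol shortage or hypoxia the zinc-cluster factors Upc2 and Ecm22 are known to activate genes of synthesis and uptake.

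The 21 Affymetrix YG-S98 arrays fell into 7 groups of 3, each array from an independent chemostat culture titled anaerobic, run at pH 5 with a dilution rate of 0.1 per h. The wild type was CEN.PK113-7D (MATa, with MAL2-8c and SUC2 named for the S- and P-limited cultures), grown with zinc (Zn), carbon (C), nitrogen (N), phosphorus (P) or sulfur (S) as the limiting nutrient. The other 2 groups were C- and N-limited cultures of the same background carrying ura3, msn2::loxP, msn4::loxP-kanMX-loxP and the plasmid p426(URA3), so that the deletion of the stress regulators MSN2 and MSN4 came together with a ura3 lesion and a URA3 plasmid that the wild type lacks. Ergosterol was fed at 10 mg per L and Tween 80 at 420 mg per L according to the growth texts of the N- and Zn-limited wild type. For the mutants and the S- and P-limited wild types both supplements are named without amounts, and the growth text of the C-limited wild type, with 25 g per L glucose in the feed, names neither. All groups but the C-limited ones were to keep 17 g per L residual glucose. For the N-limited wild type, the text on growth describes air sparging and limitation by glucose, against the titles.

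The C-, N- and Zn-limited wild types came from 3 separate deposits, and the S- and P-limited wild types and both mutant groups shared the fourth, so for all comparisons between wild-type limitations other than P against S, and for each mutant against its own wild type, deposit and group cannot be told apart. Between 25.1% and 33.6% of probe sets were at the floor of 12 on an array, and the actin 3′ to 5′ signal ratio, a sign of RNA quality, ran from 1.05 to 1.67. It was 1.05 to 1.2 in the C-limited, 1.18 to 1.23 in the N-limited and 1.31 to 1.47 in the Zn-limited wild type. The N-limited mutant, at 1.18 to 1.67, held the highest value. The part of this ratio in the differences between groups was not tested. Some of the listed anaerobic markers were bright on every array, such as the cell wall mannoprotein genes DAN1 (1921 to 5136) and TIR1 (2832 to 14864). Others were dimmer: DAN4 read 89.0 to 1852, AAC3 51.4 to 325, COX5B 22.4 to 155 and CYC7 12.7 to 379. TIF51A, listed as an aerobic marker, was bright on every array too (1217 to 3647). Aerobic respiration genes were higher in the C-limited wild type: CYC1, for cytochrome c, read 229 to 272 there, 137 to 144 under Zn limitation and 12 on all N-, S- and P-limited wild-type arrays. Of 7 listed aerobic markers 5 were called lower than under C limitation in each of the N-, S- and P-limited wild types, and under Zn limitation 4 were lower and 1 higher. Their summed signal was 3720 to 4743 under C limitation and between 2033 and 3547 in the other wild types. It was 4490 to 5345 in the C-limited and 3434 to 4023 in the N-limited mutant. A large part of these sums was TIF51A, at 1217 to 2282 under C limitation and 1475 to 2916 in the other wild types. The summed signal of 10 anaerobic markers was 20851 to 23366 under C, 12731 to 15064 under N and 12345 to 14336 under Zn limitation. Under S limitation it was 16275 to 38115 and under P limitation 18449 to 29470.2. In the C- and N-limited mutants it was 14269 to 23382.5 and 16286 to 23029.5. The part of these markers in the differences between sterol genes was not tested. MSN2 read 12.0 to 13.7 in the mutants and 58.0 to 147 in the wild type, while MSN4 read 34.5 to 55.6 and 47.3 to 153, which overlap. URA3 read 1087 to 2473 in the mutants and 30.5 to 82.4 in the wild type. Replicate 1 of the C-limited msn2 msn4 mutant, by its label, was unlike its group, with CYC1 at 33.6, 184 and 271 on replicates 1 to 3. It is called the doubtful array, and results that rest on it are given with and without it.

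Differences were tested with limma over all 21 arrays. A gene was called when its Benjamini-Hochberg adjusted p over the 5461 genes was under 0.05 and its fold was at least 2. Throughout, signals are scaled array signals in the order of replicates 1 to 3, changes are log2 differences of group means ± the standard error of the fit, with 3 arrays a group, and every adjusted p is limma's.

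With the trimmed-mean scaling used here, most of the sterol genes kept within a 2-fold range across the limitations. Over the 5 wild-type groups the highest group mean exceeded the lowest by a median of 0.79 on the log2 scale for the 31 genes and by 0.92 for all genes tested, and 22 of the 31 (71.0%) stayed within 2-fold against 57.1% of all genes. For the 23 enzymes of synthesis the median was 0.71, with 19 within 2-fold. Among the 2456 genes whose mean signal was at least that of the dimmest of these enzymes the median was 0.88 and the share within 2-fold 59.3%. By role the median was 0.90 for the early enzymes, 0.66 for the late ones, 0.98 for the electron donors, 0.44 for the importers, 1.41 for the acyltransferases and 1.76 for the transcription factors. ERG13, ERG11, ERG24, ERG26, ERG27, ERG6 and AUS1 had 95% intervals inside a 2-fold change in all 10 comparisons between wild types, a share of 22.6% of the members and 18.2% of all genes. All these values are of the trimmed-mean scaling. Under a common median the joint test below called more of the 31 at a range of 2-fold or more, and most no longer kept within 2-fold. In such bulk samples more transcript in every cell and a larger share of cells with the transcript cannot be told apart.

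**Figure D1:**
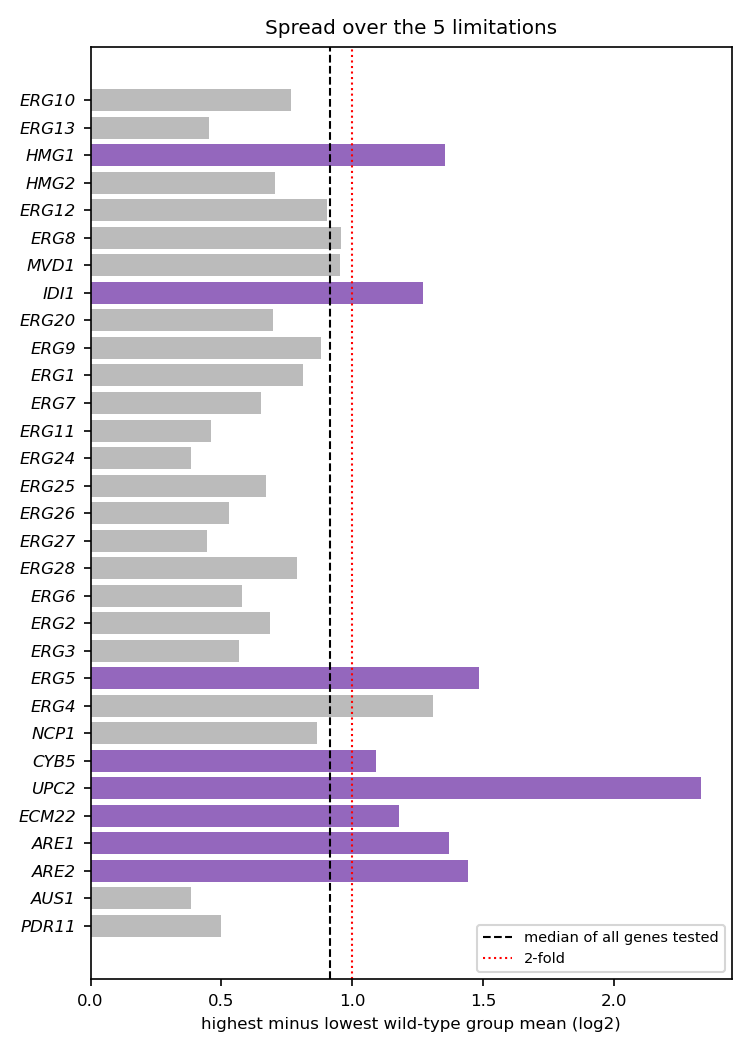
Highest minus lowest of the 5 wild-type group means (log2 signal) for each of the 31 genes in pathway order, with bars in purple for the 8 genes called in the joint test over limitations. The dashed line is the median of all genes tested (0.92) and the dotted line a 2-fold range; UPC2 has the longest bar (2.33) and AUS1 the shortest (0.38).

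In the joint F test over the 5 limitations 8 of the 31 genes (25.8%) were called, at a range of 2-fold or more, against 39.9% of all genes: HMG1, IDI1, ERG5, CYB5, UPC2, ECM22, ARE1 and ARE2. The ECM22 call was lost in 11 of 16 fits that left out 1 array, with an adjusted p up to 0.149, and under 4 of 11 other alternatives. That of CYB5 was lost without S-limited replicate 2 or 3 (0.97 and 0.98), where its range fell below 2-fold, and that of ARE2 with a floor of 24. More members were called in this test with a common median, a count given below without a share of all genes. Against C limitation none of the 31 was called under N limitation, where 10.4% of all genes were, none under S limitation (10.8%) and none under P limitation (11.7%). Of the 31, 6, 10 and 10 had an unadjusted p under 0.05 in limma, a threshold for which the share of all genes was not counted. With a change below 2-fold, 3, 7 and 4 had an adjusted p under 0.05, where 23.5%, 22.1% and 25.6% of all genes passed it at any size of change. Under Zn limitation 2 rose, UPC2 and ARE2, where 14.8% of all genes were called and 9.05% were called higher.

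The 3 comparisons of Zn limitation with other glucose-excess cultures held 4 to 7 calls, all of them higher under Zn limitation with the trimmed-mean scaling used here. There were 4 against N limitation, where 7.89% of all genes were called and 4.52% were called higher. Against S limitation there were 7, with 15.8% of all genes called and 10.6% higher, and against P limitation 5, with 15.2% called, 11.9% higher and 3.28% lower. As shares of the 31 genes these were 12.9%, 22.6% and 16.1%, the last close to its background. N limitation differed from S limitation in 2 members (11.1% of all genes) and from P limitation in 3 (14.6%). P limitation exceeded S limitation in 2 members, within 1 deposit, where 4.23% of all genes were called and 1.9% were called higher. All these comparisons share groups and are not independent of each other.

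The direction of the calls depended on how arrays were scaled where P limitation was compared. With all arrays brought to a common median instead, Zn against P limitation held 1 higher member, ARE2, and 4 lower ones, MVD1 (-1.06), ERG25 (-1.06), ERG2 and ARE1, while HMG1, IDI1, ERG5 and ECM22 were no longer called. The members' median in this comparison went from -0.13 to -0.52, and that of all genes from 0.22 to -0.11. N against P limitation went from 1 higher and 2 lower members to 0 and 9, the 9 being ERG10, ERG8, MVD1, ERG1, ERG4, NCP1, CYB5, UPC2 and ARE1. A common median also called ERG10 and UPC2 lower in N against C limitation, MVD1, NCP1 and ARE1 higher in P against C limitation, and ERG8, MVD1 and ERG9 higher in P against S limitation.

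The calls over all genes moved likewise. Higher calls made up 78.5% of all calls in Zn against P limitation, 49.8% with quantile normalization and 38.1% with a common median. In Zn against S limitation the shares were 67.4%, 47.2% and 41.3%, and in Zn against C limitation 61.3%, 47.9% and 43%. In N limitation they were 63%, 45.8% and 35.4% against C, 70.7%, 41% and 33.3% against S, and 79.3%, 46.3% and 31.3% against P limitation. In P against C limitation they were 33.8%, 46.1% and 51.8%. The member calls in Zn against C, N and S limitation were higher under Zn limitation with all 3 scalings.

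**Figure D2:**
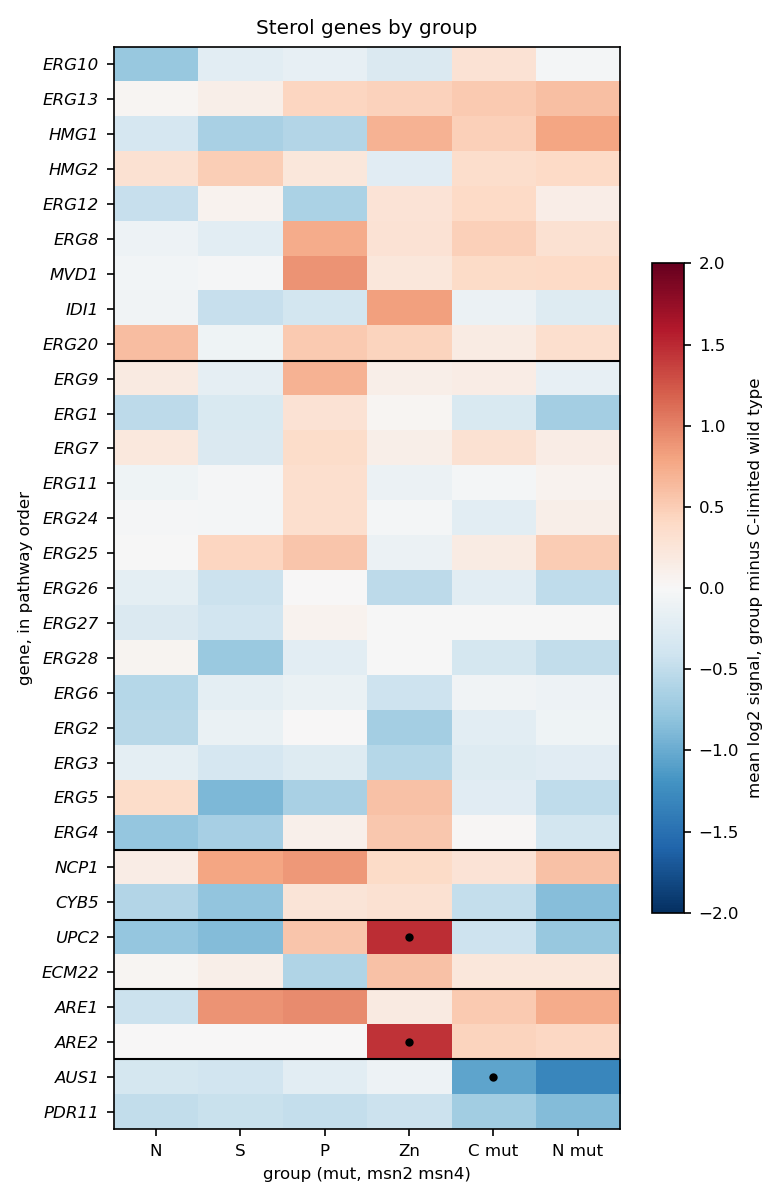
Mean log2 signal of each gene in 6 groups minus that in the C-limited wild type, in pathway order, with lines between roles (mut, msn2 msn4). Black dots mark the calls against the C-limited wild type, UPC2 and ARE2 under Zn limitation and AUS1 in the C-limited mutant; the N-limited mutant is drawn against the same reference and carries no test here.

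Among the early enzymes, HMG1 and IDI1 were called. HMG1 encodes the main aerobic isozyme of HMG-CoA reductase, which makes mevalonate and is the main control point of the pathway. Its signal was 503, 484 and 696 under Zn limitation, 432, 309 and 297 under C limitation and 241, 279 and 288 under N limitation. It was 164, 272 and 228 under S limitation and 260.5, 205 and 222 under P limitation. Every Zn-limited array lay above every other wild-type array. The change was 1.35 ± 0.22, adjusted p = 0.000169 against S limitation, 1.28 ± 0.22, adjusted p = 0.000298 against P limitation and 1.04 ± 0.22, adjusted p = 0.00301 against N limitation, and it was below 2-fold against C limitation (0.70 ± 0.22, adjusted p = 0.0233). The call against N limitation was lost without Zn-limited replicate 3 (0.88) or N-limited replicate 1 (0.96), and that against P limitation with a common median (0.89), where the change fell below 2-fold.

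HMG2, the paralogue known as the isozyme of low-oxygen growth, had the opposite order of the Zn- and S-limited groups and no call. It read 205, 174 and 174 under Zn limitation and 350.4, 225 and 341 under S limitation, which were its lowest and highest wild-type groups. The Zn-limited arrays lay below all S-limited arrays, at a change of -0.71 ± 0.23, adjusted p = 0.0238, which is under 2-fold. Of the 7 genes listed for the regulation and turnover of HMG-CoA reductase, such as HRD1 and INSIG homologues, limma called none in any of the comparisons. From 1 to 4 of them had an unadjusted p under 0.05, a threshold for which the share of all genes was not counted. The share of all genes called ran from 0.0549% to 15.8% between groups, and at such shares few or none of 7 genes would be called.

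IDI1, for the isomerase that balances the pair of building blocks of isoprenoids, followed HMG1. Its signal was 227, 256 and 290.0 under Zn limitation, 178, 127 and 136 under C limitation and 146, 135 and 136 under N limitation. Under S limitation it was 119.8, 83.0 and 120.2 and under P limitation 117, 109 and 113. The Zn-limited arrays again lay above all other wild-type arrays. It rose by 1.27 ± 0.19, adjusted p = 9.1e-05 against S and by 1.18 ± 0.19, adjusted p = 0.000193 against P limitation, and its differences from N (0.88 ± 0.19, adjusted p = 0.00398) and C limitation (0.82 ± 0.19, adjusted p = 0.00389) stayed below 2-fold. The call against P limitation was lost with a common median (0.79) and with quantile normalization, where the change came just under 2-fold with adjusted p = 0.000102.

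**Figure D3:**
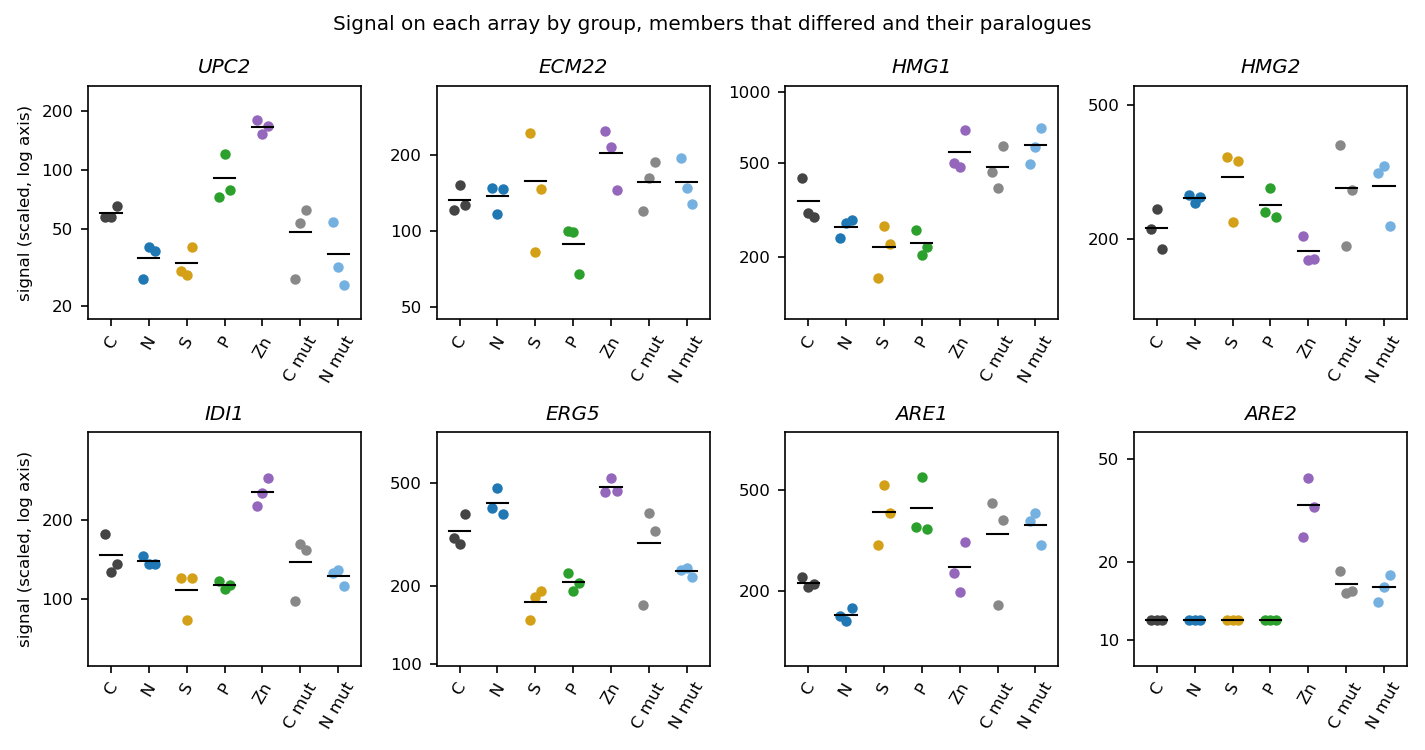
Scaled signal (log axis) of 8 genes on each of the 21 arrays by group, with a line at the arithmetic mean of 3 arrays (mut, msn2 msn4). UPC2, HMG1 and IDI1 have their 3 highest wild-type arrays under Zn limitation, ARE2 is at the floor of 12 on the 12 other wild-type arrays, and ARE1 is lowest under N limitation.

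The other early enzymes were not called in any wild-type comparison in the main fit. Calls with a common median are given above. MVD1 in P against S and ERG8 in N against P limitation were each called under 2 alternatives, the common median among them. With 1 array left out MVD1 also passed 2-fold, at up to 1.11 in P minus S, 1.04 in P minus C and -1.10 in N minus P. The highest limma adjusted p in these fits was 0.0299, 0.0167 and 0.0133. MVD1 and ERG8, for the last and the next to last step to isopentenyl diphosphate, had their highest wild-type means under P limitation. MVD1 read 1171, 882 and 1179 under P limitation and 453 to 761 on the 12 other wild-type arrays, which do not overlap. Its change was 0.90 ± 0.19, adjusted p = 0.00292 against C, 0.93 ± 0.19, adjusted p = 0.00491 against S and -0.95 ± 0.19, adjusted p = 0.00172 for N minus P limitation, each just under 2-fold. ERG8, phosphomevalonate kinase, read 443, 466 and 261 under P limitation and 131 to 298 elsewhere in the wild type, where 1 P-limited array fell within the range of the rest.

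ERG10, the thiolase that opens the pathway, read 490.0, 753 and 323 under N limitation against 756, 817 and 948 under C limitation (-0.76 ± 0.25, adjusted p = 0.0349), with the third N-limited array the lowest of all. ERG13, HMG-CoA synthase, read 348 to 667 over the 15 wild-type arrays. ERG20, farnesyl diphosphate synthase, ran from 140.3 to 332 (0.70 ± 0.24, adjusted p = 0.0409 for N minus S limitation). ERG12, mevalonate kinase, read 36.8 to 118, and Zn minus P limitation was 0.90 ± 0.32, adjusted p = 0.0359, with overlap. Its probe sets did not follow each other: Zn minus C limitation was 0.27 on the probe set used and 1.32 on another.

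Of the 14 late enzymes only ERG5 and ERG4, the last 2 steps of the pathway, were called in a wild-type comparison with the scaling used here. ERG5 encodes the cytochrome P450 that desaturates the sterol side chain, and it needs oxygen and haem. Its signal was 465, 525 and 467 under Zn limitation, 401, 482 and 382 under N limitation and 307, 292 and 379.7 under C limitation. It was 148, 182 and 193 under S limitation and 225, 192 and 206 under P limitation. All S- and P-limited arrays lay below all others of the wild type. Zn limitation exceeded S by 1.49 ± 0.22, adjusted p = 7.57e-05 and P by 1.23 ± 0.22, adjusted p = 0.000508, and N limitation exceeded S by 1.28 ± 0.22, adjusted p = 0.000713 and P by 1.02 ± 0.22, adjusted p = 0.00276. Against C limitation the values were -0.90 ± 0.22, adjusted p = 0.0076 under S and -0.64 ± 0.22, adjusted p = 0.0414 under P limitation, below 2-fold. The call of N against P limitation was lost without N-limited replicate 2 (0.92) or P-limited replicate 2 (0.96), with quantile normalization (0.94), a common median (0.59), log2 of signal plus 12 (0.98) or a term for array codes ending in b (0.90). With a common median the calls of N against S (0.97) and Zn against P limitation (0.84) were lost too.

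ERG4, the reductase that completes ergosterol, read 779, 717 and 981 under Zn limitation, 480.2, 511 and 147 under N limitation and 354, 249.7 and 509.8 under S limitation. It read 606, 522 and 564 under C limitation and 649.7, 519 and 642 under P limitation. The third N-limited array was low against the other 2 of its group, and the Zn-limited arrays lay above all other wild-type arrays. It rose by 1.31 ± 0.43, adjusted p = 0.0453 against N and 1.20 ± 0.43, adjusted p = 0.039 against S limitation. The call against N limitation was lost without Zn-limited replicate 1, 2 or 3 (1.34, 1.40 and 1.18) or N-limited replicate 3, where the change was 0.72 with adjusted p = 0.265. That against S limitation was lost without Zn-limited replicate 1, 2 or 3 (1.24, 1.30 and 1.07) or S-limited replicate 1 or 2 (1.20 and 0.95). Without the filter on low values neither was a call (adjusted p = 0.0658 and 0.056). The first was also lost with a floor of 24 and with the compared groups alone (adjusted p = 0.0504 and 0.126), and the second with a common median (0.93) and the term for array codes (0.74).

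The other 4 oxygen-using enzymes were not called in any wild-type comparison, ERG1 and ERG25 with a common median excepted. ERG1, squalene epoxidase and the first step that needs oxygen, read 1501, 1468 and 1703 under P limitation, 882, 1199.9 and 1049 under S and 811, 1018 and 837 under N limitation. Every P-limited array lay above the other 12 wild-type arrays, which ran from 811 to 1456. The N minus P difference was -0.81 ± 0.17, adjusted p = 0.00233, the P minus S difference 0.59 ± 0.17, adjusted p = 0.0486 and the N minus C difference -0.53 ± 0.17, adjusted p = 0.0362, all below 2-fold.

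ERG11, the lanosterol demethylase that is the target of azole drugs, read 2157 to 4491 over the wild-type arrays and its largest change between group means was 0.46. ERG25, the C-4 methyl oxidase, read 2030.3 to 5076, with 2355, 2473 and 2631 under Zn and 3212, 3779.9 and 5076 under P limitation (-0.67 ± 0.25, adjusted p = 0.0439). ERG3, the C-5 desaturase, read 2142 to 3711 with no adjusted p under 0.05.

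Among the late enzymes without an oxygen step, ERG28, the scaffold that tethers the C-4 demethylation enzymes, read 642, 672 and 737 under S limitation and 897 to 1324 on the other wild-type arrays, which lay above all 3. S limitation was -0.74 ± 0.17, adjusted p = 0.00519 from C limitation. Its enzyme partners ERG26 (403 to 916) and ERG27 (383 to 634) varied less, by 0.53 and 0.45 between group means. ERG6, the methyltransferase that sets yeast sterols apart from cholesterol, read 1297, 1286 and 1209 under N and 2179, 1713 and 1794 under C limitation (-0.58 ± 0.17, adjusted p = 0.0219). ERG2, the sterol isomerase, ran from 2082 to 5329, ERG24, the C-14 reductase, from 267 to 502, and ERG7, lanosterol synthase, from 129 to 322, none of them with an adjusted p under 0.05. ERG9, squalene synthase at the branch to sterols, read 642, 449 and 639.5 under P limitation and 227 to 462 on the other wild-type arrays.

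The 2 electron donors differed from each other. NCP1, the reductase that passes electrons to the cytochrome P450 enzymes and to squalene epoxidase, read 814, 475 and 747 under C limitation, 925, 1611 and 1008 under S and 1016, 1149 and 1492 under P limitation. Its lowest wild-type mean was under C limitation, with 0.79 ± 0.25, adjusted p = 0.0291 for S and 0.86 ± 0.25, adjusted p = 0.0163 for P limitation, both below 2-fold. CYB5, cytochrome b5, read 389, 242 and 245 under S, 325, 365 and 298 under N and 639, 404 and 461 under C limitation. It read 659, 514 and 605 under P and 464, 699 and 684 under Zn limitation. All S- and N-limited arrays lay below all arrays of the other 3 wild types. CYB5 rose by 1.05 ± 0.27, adjusted p = 0.0205 in P against S and by 1.09 ± 0.27, adjusted p = 0.00486 in Zn against S limitation. The first call was lost without S-limited replicate 2 or 3 (0.93 and 0.94) or P-limited replicate 1 or 3 (0.97 and 1.03), and the second without Zn-limited replicate 2 (0.99) or S-limited replicate 2 or 3 (0.97 and 0.98), with a common median (0.82) or with the term for array codes (0.99).

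P and S limitation are the wild-type pair measured in 1 deposit with the same growth text. Of the 31 genes, 6 had an adjusted p under 0.05, all higher under P limitation, against 7.38% of all genes: ERG8, MVD1, ERG9 (0.05 after rounding), ERG1, CYB5 and UPC2. Only CYB5 and UPC2 passed 2-fold, and neither was called when the fit held these 2 groups alone. The members' median change was 0.26 and that of all genes -0.08. For the 9 early enzymes it was 0.09 and for the 14 late enzymes 0.40, with every late enzyme's change above 0 (0.07 to 0.88). Over the wild-type groups the P-limited mean was the highest of the 5 for 13 members and the Zn-limited mean for 10, while the S-limited mean was the lowest for 12, though with scaling to a common median the N-limited mean was the lowest most often, for 16. These orders, and the changes above 0, were counted for the members alone. No count over all genes stands beside them, so they are not read as particular to the sterol genes.

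**Figure D4:**
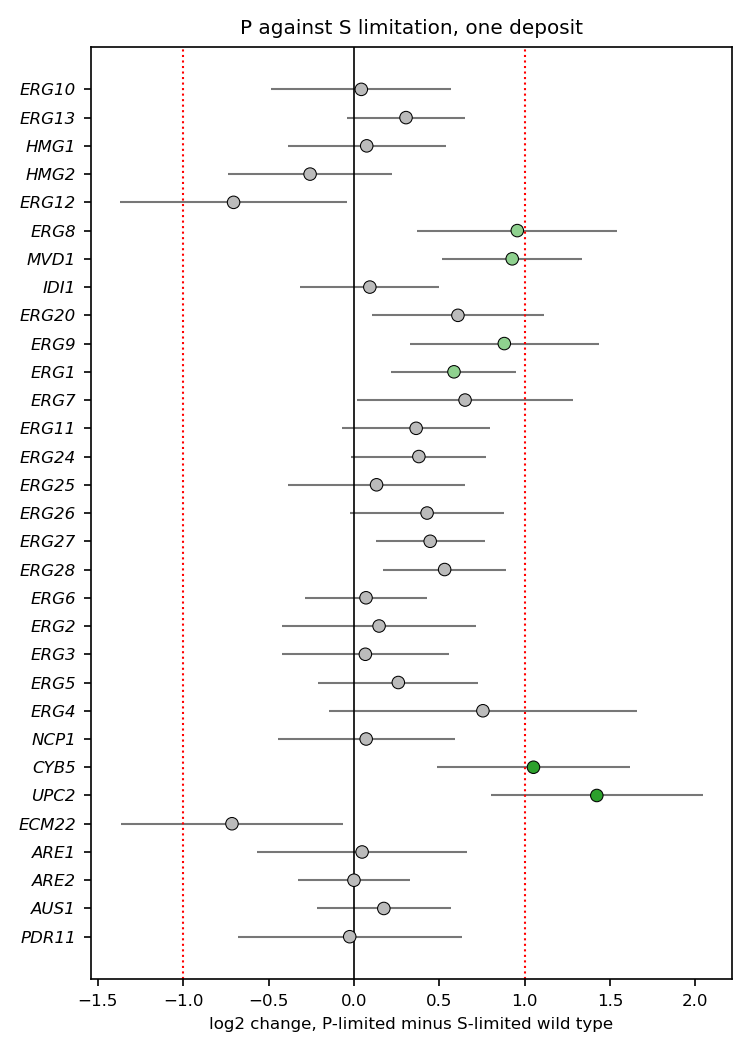
Log2 change of each gene, P-limited minus S-limited wild type, with 95% intervals of the limma fit. Dark green marks the 2 calls (CYB5 1.05, UPC2 1.42), light green the other 4 genes with an adjusted p under 0.05, and dotted lines a 2-fold change.

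UPC2 had the widest range of the 31 genes over the wild types. Upc2 and Ecm22 are paralogous zinc-cluster activators that bind sterol response elements, and UPC2 transcript is known to be induced under low oxygen. UPC2 read 179, 153 and 167 under Zn limitation, 72.5, 120.2 and 78.7 under P and 57.1, 57.5 and 65.3 under C limitation. It read 27.6, 40.1 and 38.2 under N and 30.4, 29.0 and 40.4 under S limitation. The groups fell in the order Zn, P, C and then N and S, with overlap only between N and S. Zn limitation exceeded S by 2.33 ± 0.30, adjusted p = 1.34e-05, N by 2.25 ± 0.30, adjusted p = 3.33e-05 and C by 1.47 ± 0.30, adjusted p = 0.00108, and P by less than 2-fold (0.91 ± 0.30, adjusted p = 0.0248). P limitation exceeded S by 1.42 ± 0.30, adjusted p = 0.00455, and N minus P was -1.34 ± 0.30, adjusted p = 0.00284.

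ECM22 read 249, 214 and 145 under Zn, 99.7, 98.8 and 67.5 under P and 244, 82.7 and 146 under S limitation, the latter with the widest scatter. It read 121, 152 and 126 under C and 147, 117 and 147 under N limitation. P-limited arrays lay below those of C, N and Zn limitation, and Zn exceeded P limitation by 1.18 ± 0.31, adjusted p = 0.00804, a call that was lost without P-limited replicate 3 (0.99), with quantile normalization (0.95) and with a common median (0.79). For UPC2 the P-limited mean was the second highest of the 5 wild types, and for ECM22 it was the lowest.

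Of 8 listed transcription factors of the oxygen, haem and sterol response, 3 were called higher under Zn than under C limitation, where 9.05% of all genes were called higher. Against N limitation there were 2 (4.52%), against S 4 (10.6%) and against P limitation 4 (11.9%). HEM13, a haem synthesis gene listed with them and among the anaerobic markers, was not called in these comparisons. The probe sets of HAP1, 1 of the 8 factors, did not follow each other. Zn minus C limitation was 0.39 on the probe set used, and others gave 1.61 and 0.28. ROX1 alone of these factors was called in all 4 under every alternative that kept it among the genes tested and with any array left out, and with a common median SUT2 was not called against C (0.84), SUT1 not against S (0.94), and MGA2 and SPT23 not against P limitation (0.89 and 0.77). ROX1, the repressor of hypoxic genes, read 73.9, 56.1 and 74.1 under Zn limitation and 12.0 to 15.6 on the other wild-type arrays, at or near the floor. Its Zn-limited mean was at least 5.62-fold that under C limitation (2.49 ± 0.15, adjusted p = 1.38e-09). MGA2, an activator of the fatty acid desaturase gene, read 174, 172 and 209.7 under Zn and 36.9 to 115 elsewhere in the wild type. It was higher by 1.73 ± 0.29, adjusted p = 0.000208 against S limitation. SUT2, a factor linked to sterol uptake, was higher by 1.63 ± 0.17, adjusted p = 1.34e-06 against S limitation.

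SUT1, a positive factor of sterol uptake under anaerobic growth, had another order. It read 274, 262 and 332 under C, 131, 147 and 175 under Zn and 104, 99.2 and 115 under P limitation. It read 66.2, 70.6 and 73.4 under N and 54.4, 61.2 and 82.2 under S limitation. C-limited arrays lay above all other wild-type arrays. SUT1 was lower by 4.44-fold under S (-2.15 ± 0.26, adjusted p = 1.47e-05), by 4.12-fold under N (-2.04 ± 0.26, adjusted p = 4.17e-05) and by 2.72-fold under P limitation (-1.44 ± 0.26, adjusted p = 0.000811). CYC1, named above, was likewise highest in the C-limited wild type, and its part in these differences was not tested.

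The 2 sterol acyltransferases, which store sterol as steryl esters, differed. ARE1, reported as the isozyme favoured when oxygen or haem is short, read 159, 151 and 169.9 under N, 226, 207 and 212 under C and 235, 197 and 312 under Zn limitation. It read 302, 523 and 405 under S and 356, 565 and 351 under P limitation. N-limited arrays were the lowest of the wild type, all below every other array. ARE1 was lower under N than under S (-1.32 ± 0.29, adjusted p = 0.00401) and under P limitation (-1.37 ± 0.29, adjusted p = 0.00228). Against C limitation the values under S (0.90 ± 0.29, adjusted p = 0.0358) and P limitation (0.95 ± 0.29, adjusted p = 0.0247) were below 2-fold. ARE2, the main aerobic isozyme, was at the floor of 12 on all 12 C-, N-, S- and P-limited wild-type arrays and read 25.1, 42.2 and 32.8 under Zn limitation. Its Zn-limited mean was at least 2.72-fold that of each of these groups (1.44 ± 0.16, adjusted p = 2.3e-06 against C limitation). In the mutants it read 18.6, 15.2 and 15.5 under C and 14.1, 16.0 and 17.9 under N limitation, just above the floor.

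The Zn-limited arrays were those with the highest deposited signal, with a trimmed mean of 398 to 466 against 150 to 311 on the rest, and 25.1% to 28% of their probe sets were at the floor, against 27.8% to 33.6% on the rest. The part of this in low signals such as ARE2 and ROX1 was not tested.

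The importer gene AUS1 read lower on every mutant array than on any wild-type array. Aus1 and Pdr11 are the ABC transporters by which anaerobic yeast takes up sterol. AUS1 read 981, 927 and 928 in the C-limited wild type and 359.5, 529 and 499 in the C-limited mutant. It read 735, 841 and 655 in the N-limited wild type and 473, 320.2 and 365 in the N-limited mutant. All 6 mutant arrays lay below all 15 wild-type arrays, whose range was 593 to 981, S- and P-limited arrays of the mutants' own deposit included (593 to 891). The change was -1.05 ± 0.19, adjusted p = 0.00185 under C limitation, a call, and -0.96 ± 0.19, adjusted p = 0.00224 under N limitation, just below 2-fold. Without the doubtful array the change under C limitation was -0.88 with adjusted p = 0.0132, and it was no longer a call. The call was also lost with the mean over probe sets (-1.14, adjusted p = 0.116) and with the compared groups alone (adjusted p = 0.0918). The 6 probe sets of AUS1 all had lower means in both mutant groups, from -1.35 to -0.93 under C and from -1.11 to -0.11 under N limitation. These means include the doubtful array, and some of the probe sets were at the floor on 1 array.

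Among the wild types AUS1 kept to a range of 0.38 between group means, the smallest of the 31. PDR11 read 283, 191 and 244 under C limitation and 144 to 234 in the other wild types. In the mutants it read 131, 131 and 185 under C and 153, 208 and 67.5 under N limitation, at -0.69 ± 0.31, adjusted p = 0.188 and -0.37 ± 0.31, adjusted p = 0.418, with overlap of the groups under N limitation and no call. The growth texts differ between groups in whether and how they name ergosterol, the substrate of both importers, as given above, and the part of this in AUS1 and PDR11 was not tested.

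**Figure D5:**
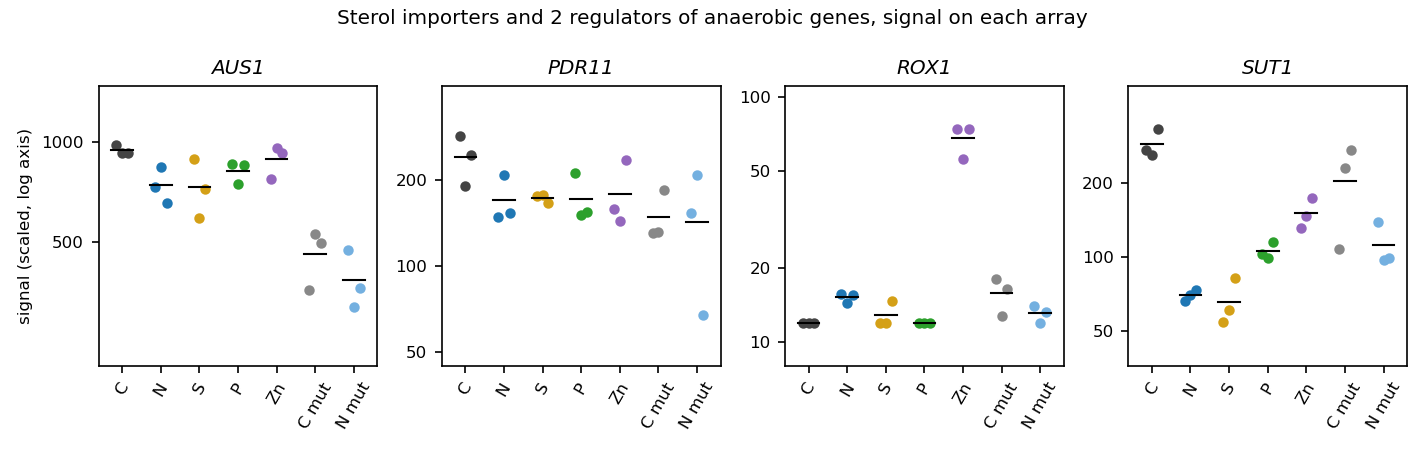
Scaled signal (log axis) of the sterol importer genes AUS1 and PDR11 and of the regulator genes ROX1 and SUT1 on each array by group, with a line at the mean of 3 arrays (mut, msn2 msn4). AUS1 on all 6 mutant arrays lies below all 15 wild-type arrays, ROX1 is at 56.1 to 74.1 under Zn limitation and 12.0 to 18.1 elsewhere, and SUT1 has its 3 highest wild-type arrays under C limitation.

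In the mutant under C limitation AUS1 was the single call among the 31 genes, where 4.03% of all genes were called and 1.98% were called lower (2.58% called without the doubtful array, with no member among them). Under N limitation HMG1 and ARE1 rose, with 7.84% of all genes called and 2.34% called higher, and 4 further members had an adjusted p under 0.05, which 18.5% of all genes passed. HMG1 read 497, 586 and 709.6 in the N-limited mutant and 241, 279 and 288 in the N-limited wild type, without overlap (1.14 ± 0.22, adjusted p = 0.00214). Of all calls in this comparison 29.9% were higher in the mutant, against 53.5% with quantile normalization and 64.6% with a common median, where HMG1 and ARE1 were still the members called. In the C-limited mutant it read 458, 393 and 595 against 432, 309 and 297, which overlap (0.48 ± 0.22, adjusted p = 0.195). All 6 mutant arrays also lay above all S- and P-limited wild-type arrays of the same deposit (164 to 272).

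ARE1 read 378, 406 and 304 in the N-limited mutant against 159, 151 and 169.9 in its wild type (1.17 ± 0.29, adjusted p = 0.0121). These mutant arrays lay within the range of the S- and P-limited wild-type arrays, 302 to 565. ERG5 read 232, 235 and 218 in the N-limited mutant, below all N-limited wild-type arrays (-0.88 ± 0.22, adjusted p = 0.0133), and overlapping the S- and P-limited arrays of the same deposit (148 to 225). ERG13 (0.56 ± 0.16, adjusted p = 0.0246) and ERG28 (-0.54 ± 0.17, adjusted p = 0.0359) were the other members past the adjusted p alone.

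Since the N-limited mutant shares no deposit with its wild type, it was also set against the mean of the S- and P-limited wild types of its own deposit, which differ from it in limitation as well, a comparison added after seeing the data. There 3.85% of all genes were called and among the members HMG1 (1.41 ± 0.19, adjusted p = 8.2e-05) and AUS1 (-1.02 ± 0.16, adjusted p = 0.000433). ARE1 (-0.18 ± 0.25, adjusted p = 0.788) and ERG5 (0.27 ± 0.19, adjusted p = 0.485) were not called. HMG1 and AUS1 differed in the same direction from both sets of wild-type arrays, and ARE1 and ERG5 did not pass the test in the second.

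Between the 2 mutant groups no member was called, with 0.0549% of all genes called and no member at an unadjusted p under 0.05. Without the doubtful array 5.16% of all genes and still no member were called. The difference of the mutant effects between N and C limitation held no called member either (1.5% of all genes called), with 2 members at an unadjusted p under 0.05. For neither comparison was the share of all genes at that unadjusted p counted. In the difference of effects without the doubtful array, with 2.47% of all genes called, 1 member was called, ERG5 at -1.01 (adjusted p = 0.0249). The doubtful array lay outside the other 2 of its group for several members: ERG4 read 284, 833 and 799, ERG5 169, 384 and 327, UPC2 27.5, 53.3 and 62.5 and CYB5 225, 504 and 386 on replicates 1 to 3 of the C-limited mutant. On these 4 genes its level was within or below that of the N-limited mutant arrays, which read 460.4, 558 and 325 for ERG4, 232, 235 and 218 for ERG5, 54.0, 31.8 and 25.8 for UPC2 and 238, 313 and 273 for CYB5.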

How the data were processed

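The members, the gene lists and the tests were chosen with earlier results of these data known. The authors deposited 1 table of linear signal intensity for 9335 probe sets on 21 arrays; per the submitters' processing notes and the labels' protocols it came from the GeneChip Operating Software (version 1.2 where stated). The labels' protocols of the S- and P-limited and mutant arrays say that values under 12 were set to 12, yet lower values are in the deposited table. The genome build behind the probe sets is not given in the sources used here, and probe sets were named through GEO's platform annotation with symbols updated from the R64 reference.

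Signals were brought to the same 2% trimmed mean (150.2) on all arrays, floored at 12 and put on the log2 scale. Of all probe sets 6504 matched 1 gene, 328 several and 2503 were controls or unannotated, and these last 2 kinds were left out. The brightest probe set was kept for the 315 genes with several, which left 5656 genes; 195 at the floor on all arrays were not tested. The fit had 7 group means (limma 3.58.1, R 4.3.3), with Benjamini-Hochberg adjustment over 5461 genes. The fit was tried before use on simulated data with independent noise for each gene. Those data held no effect of deposit, scaling or array code, so the trial could not check for these. The precision is limited by 3 arrays a group. The named genes were the 31 members, up to 4 called genes of each other list in a comparison, by size of change, and the label checks. Alternatives were quantile and common-median scaling, other floors and filters, the mean over probe sets, the compared groups alone, a replicate block, the adjusted p alone, each array left out and, added after seeing the data, a term for array codes that end in b, whose meaning is not given.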

Additional observations from a re-analysis of the deposited data

How the results depend on the processing

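Of 28 calls of single members between pairs of groups, 11 held under every alternative and with any array left out, and 0 turned direction: UPC2 in Zn against C, N and S and in N against P limitation, ARE1 in N against S and P limitation and in the N-limited mutant, HMG1 in Zn against S limitation and in the N-limited mutant, and IDI1 and ERG5 in Zn against S limitation. Scaling to a common median lost 8 calls, quantile normalization 3, and leaving out 1 array 8, whose values without that array stand beside each result. The ARE2 calls were lost with a floor of 24. The median of all genes shifted with the scaling, for N minus P limitation from 0.28 to -0.08 under a common median, and the members' median for Zn minus C limitation from 0.12 to -0.08; the cause was not tested. P-limited means were highest for 10 members under quantile normalization and 18 under a common median, where N and no longer S limitation was lowest most often, for 16. These orders too were not counted over all genes.

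The following counts of members called moved by over 1.5 times, or to or from 0. With quantile normalization it was 1 for N minus C and 3 for Zn minus P, where 526 and 677 of all genes were called. With a common median it was 2 for N minus C, 3 for P minus C, 5 for P minus S, 1 for N minus S and 9 for N minus P. There 554, 599, 242, 531 and 619 of all genes were called, in the same order, and the joint test held 16 members. With the adjusted p alone it was 3 for N minus C (23.5% of all genes), 7 for S minus C (22.1%), 4 for P minus C (25.6%) and 5 for Zn minus C (29.2%). For P minus S it was 6 (7.38%), for N minus S 4 (25.1%), for N minus P 8 (33.4%) and for Zn minus N 7 (16.3%). For Zn minus P it was 9 (33.7%), for the N-limited mutant 6 (18.5%) and in the joint test 16 (61.8%). A floor of 24 gave 1 for Zn minus C and 2 for Zn minus N, and a mean signal of at least 50 gave 1 for Zn minus C. The compared groups alone gave 0 for P minus S and 0 for the C-limited mutant, as did the mean over probe sets for that mutant. Smaller moves included 9 for Zn minus S with the adjusted p alone (8 higher, 1 lower), which 33.6% of all genes passed. Others were 5 for Zn minus S with a common median, 6 for Zn minus S and 4 for Zn minus P with a floor of 24. The joint test held 11 with the term for array codes. Counts with other floors, filters and fits, with 1 array left out and in the joint test with a common median stand without a share of all genes. They show only how the number of members moved. With 1 array left out the counts ran from 0 to 1 for N minus C, 0 to 2 for S minus C and P minus C, 2 for Zn minus C and N minus S, 1 to 5 for P minus S, 3 to 4 for N minus P, 2 to 4 for Zn minus N, 5 to 7 for Zn minus S, 4 to 7 for Zn minus P, 0 to 1 for the C-limited mutant and the difference of mutant effects, 2 to 3 for the N-limited mutant, 0 between mutants and 7 to 11 in the joint test. Without P-limited replicate 2 the P minus S count was 5, without P-limited replicate 1 it was 1, and without Zn-limited replicate 3 the Zn minus N count was 2.

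The labels number replicates 1 to 3 in every group, but same-numbered arrays did not deviate together: none of 13 comparisons had every correlation of deviations above 0.1 (range -0.26 to 0.30). With a replicate block the counts were 0 for N, S and P minus C, 2 for Zn minus C, P minus S and N minus S, 3 for N minus P and Zn minus N, 6 for Zn minus S, 5 for Zn minus P, 1 and 2 for the mutants under C and N limitation and 8 in the joint test. The calls lost were those of ERG4 in Zn minus N and Zn minus S (adjusted p = 0.0647 and 0.0544).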

Other observations

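Of 24 listed genes of steryl ester hydrolysis, sterol transport and acetylation, 11 were called in the joint test over the wild-type limitations, against 39.9% of all genes. In Zn against P limitation 5 were called (20.8%), 3 higher and 2 lower, where 15.2% of all genes were called, 11.9% higher and 3.28% lower. LAM4, a sterol transfer protein at membrane contact sites, was higher by 1.75 ± 0.26, adjusted p = 6.71e-05, and PDR16, a phosphatidylinositol transfer protein, by 1.27 ± 0.28, adjusted p = 0.00227. LAM5 was lower under Zn limitation (-1.22 ± 0.22, adjusted p = 0.000441). The PDR16 call was lost with quantile normalization (0.90), a common median (0.88) and without P-limited replicate 3 (0.99), and that of LAM5 without P-limited replicate 1 (-0.95). HES1, an oxysterol-binding protein homologue, was the single call of the list in P against S limitation (1.38 ± 0.21, adjusted p = 0.00022). This is 4.17% of the list, where 4.23% of all genes were called. HES1 read 255, 240.1 and 284 under P and 129, 80.2 and 95.4 under S limitation, without overlap.

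YSP2, a sterol transfer protein of contact sites with the plasma membrane, was lower in both mutants, at -1.02 ± 0.21, adjusted p = 0.00528 under C and -1.07 ± 0.21, adjusted p = 0.00216 under N limitation, and the first was no longer a call without the doubtful array (-0.78, adjusted p = 0.034). It read 72.6, 54.8 and 55.1 and 80.4, 68.7 and 68.6 in the C- and N-limited wild types and 21.3, 36.2 and 34.1 and 40.8, 30.6 and 32.6 in the mutants. SIP3 (-1.07 ± 0.21, adjusted p = 0.00204) and NCR1 (-1.00 ± 0.18, adjusted p = 0.00106), the latter the yeast homologue of the Niemann-Pick C1 protein, were lower in the N-limited mutant. With a common median the changes of YSP2, SIP3 and NCR1 in the N-limited mutant came below 2-fold (-0.83, -0.82 and -0.76).

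Of 9 tested genes at branches from farnesyl diphosphate, 5 were called in the joint test, against 39.9% of all genes. In the pairs named below 14.8% of all genes were called in Zn against C, 10.4% in N against C and 11.7% in P against C limitation. NUS1, a subunit of the prenyltransferase that starts dolichol synthesis, was higher under Zn than under C limitation (1.27 ± 0.28, adjusted p = 0.00207) and under N than under C limitation (1.02 ± 0.28, adjusted p = 0.0137). COX10, which makes the haem of cytochrome oxidase, was lower under N (-1.09 ± 0.27, adjusted p = 0.00774) and P limitation (-1.25 ± 0.27, adjusted p = 0.00283) than under C limitation. BTS1, geranylgeranyl diphosphate synthase, read 29.8, 23.7 and 21.1 under N limitation and 12.0 to 12.2 under C limitation, near the floor, at least 2.04-fold apart. With a common median neither BTS1 (0.83) nor NUS1 (0.78) was called in N against C limitation, and COX10 was not without C-limited replicate 1 (-0.97).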
